A study of Mus musculus with 12 samples.

Results

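The synthesis of serine, its one-carbon units and asparagine, with the neighbouring routes to proline and phosphoenolpyruvate, was followed through 10 genes chosen by name from the 25097 genes of the tables. They are Phgdh, Psat1, Psph, Shmt1, Shmt2, Mthfd2, Asns, Aldh18a1, Pycr1 and Pck2. Earlier results of these data were known when they were chosen, so their ranks and medians below are descriptions. All 10 are in the tables, and 9 had enough counts to be tested. The tenth, Phgdh, was listed near 0 in every library. The RNA came from G1E-ER-GATA-1 cells, mouse erythroid precursors that lack their own GATA-1, the master transcription factor of red cell development, and carry GATA-1 fused to the estrogen receptor's ligand-binding domain. Beta-estradiol activates the fusion protein and starts erythroid maturation. There were 4 groups of 3 libraries. Cells with mutated cis-elements of Alas2, called double mutant by the submitters, received 1 µM beta-estradiol and 1 mM 5-aminolevulinic acid (5-ALA) for 48 h in the first group, and 1 µM beta-estradiol for 48 h in the second. Wild-type (WT) cells received 1 µM beta-estradiol for 48 h in the third group and were untreated in the fourth. All cells carried the ER-GATA-1 fusion and grew in medium with erythropoietin, Kit ligand-conditioned medium and puromycin. The labels do not say whether the mutant cells are 1 clone or whether replicates came from separate cultures, so p-values measure the spread between these libraries, which may be technical.

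Serine is made from the glycolytic intermediate 3-phosphoglycerate, and its conversion to glycine hands a carbon to folate for nucleotide and methionine synthesis. Glycine is also a substrate of heme: Alas2, the erythroid 5-aminolevulinate synthase, joins it to succinyl-CoA to make 5-ALA, and added 5-ALA enters heme synthesis after that step. Many genes of serine, asparagine and proline synthesis are known targets of ATF4, a transcription factor of the amino acid response, and in erythroid cells low heme activates the kinase HRI (gene Eif2ak1), which acts upstream of ATF4.

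Because that factor and its partners bind a recognisable element, the starts of the genes were read first. RefSeq promoter windows (build GRCm38.p6, from 250 bases before to 50 bases after the start) held the letters TGATGNAA, the core of the C/EBP-ATF element, on either strand in 3 of the 10 genes, Asns, Pck2 and Pycr1. Of all 32851 RefSeq windows, 3.97% held it. The 4 sequences below are shown 5′ to 3′ along the gene's strand because Asns, Pycr1 and Pck2 carry these letters and Aldh18a1 carries the E-box CACGTG. That Myc-type element was in 1 of the 10 genes and 7.15% of windows, so its share among the genes is near that of all windows. Capitals mark the match.
Asns: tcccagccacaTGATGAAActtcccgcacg
Pycr1: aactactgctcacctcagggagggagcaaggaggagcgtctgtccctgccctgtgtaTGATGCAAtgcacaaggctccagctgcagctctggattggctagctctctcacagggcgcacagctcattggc
Pck2: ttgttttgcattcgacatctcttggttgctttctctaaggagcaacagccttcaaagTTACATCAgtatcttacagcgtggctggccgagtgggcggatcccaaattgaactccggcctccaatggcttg
Aldh18a1: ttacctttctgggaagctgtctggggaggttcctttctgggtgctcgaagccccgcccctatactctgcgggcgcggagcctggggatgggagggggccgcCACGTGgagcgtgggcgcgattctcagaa
The Asns stretch is chr6:7693214-7693243 on the minus strand, with its match beginning at position -23 from the RefSeq start and inside an Asns exon annotated in GENCODE M21. The Pycr1 stretch is chr11:120643779-120643908 on the minus strand, with the match at -103. The Pck2 stretch is chr14:55540106-55540235 on the plus strand and also has its match at -103, with the motif on the opposite strand. The Aldh18a1 stretch is chr19:40588494-40588623 on the minus strand, with its E-box at -59. The last 3 lie in no annotated exon. Of the other motifs searched on both strands, CCAAT was in 7 of the 10 genes and 37.4% of windows, and TGACNNNGC in 3 genes and 12.4% of windows. The GATA element (an A or T, then GATA, then an A or G) was in 1 gene, Psat1, and 29.8% of windows, and TGACGTNA in 0 genes and 2.93% of windows. A match is a description of letters and not a binding site.

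The libraries held 20309085 to 43548387 expected counts, and 12115 genes were tested. Within groups, Pearson r of log2 CPM (expected counts scaled to library size, with TMM) was 0.9901 to 0.9932, and libraries of a group lay together on the first 2 principal components. The gene carrying the mutation went with the labels: mean Alas2 was 12.3 CPM in mutant cells given 5-ALA beside estradiol, 7.64 CPM in mutant cells given estradiol alone, 4293 CPM in WT cells with estradiol and 5.12 CPM in untreated WT cells. All 9 erythroid markers were measured. Their summed TPM, the deposited abundance scaled for transcript length and depth, ranged from 168054 to 179611 with 5-ALA, from 68078 to 69844 in mutant cells with estradiol, from 185490 to 187078 in WT cells with estradiol and from 1031 to 1111 in untreated WT cells. Of 5 mast cell markers, Fcer1a, Mcpt8 and Tpsb2 were listed at 0 throughout, and the sum of the list was 0.62 to 1.06 TPM with 5-ALA, 0.60 to 1.06 TPM in mutant cells with estradiol, 3.10 to 3.39 TPM in WT cells with estradiol and 201 to 210.35 TPM in untreated WT cells. The untreated sum was Cpa3 alone, and Cma1 went the other way, at 0.95 to 1.06 TPM in WT cells with estradiol and listed at 0 in untreated WT cells. Megakaryocyte markers, with Gp1bb at 0, summed to 31.5 to 33.6 TPM, 18.1 to 19.8 TPM, 33.5 to 37.0 TPM and 159 to 163 TPM in the same 4 groups. With estradiol in WT cells Pf4 and Itga2b fell while Gp9 and Vwf rose, and with 5-ALA in mutant cells Pf4 and Itga2b rose. Granulocyte and macrophage, lymphocyte and fibroblast markers did not exceed 5.58, 1.34 and 0.06 TPM in any library. The part of these shifts in the results below was not tested, and in bulk RNA fewer cells of a type and less RNA per cell cannot be told apart.

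In WT cells, 48 h of estradiol, which activates the GATA-1 fusion, was set against no treatment. Effects of the fusion, of estradiol itself and of time in culture cannot be told apart here. All 9 tested genes fell, by between 3.08-fold (Aldh18a1) and 32.9-fold (Pck2), and in each the 2 groups of libraries did not overlap. Their median log2 fold change was -3.27, against -0.03 over all genes tested. The background is large in this comparison: 46.4% of all tested genes were called lower (edgeR quasi-likelihood test, adjusted p below 0.05), 43.3% were called higher, and 46.7% lay lower and 43.6% higher without overlap.

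The serine branch came first. Phgdh (ENSMUSG00000053398, chr3:98313170-98339990, minus strand in mm10) encodes 3-phosphoglycerate dehydrogenase, which opens the pathway. Its expected counts were 1, 0 and 0 in mutant cells with 5-ALA, 0 in each mutant library with estradiol, 2, 0 and 1.24 in WT cells with estradiol, and 0, 0 and 1 in untreated WT cells. The gene therefore had 5.24 expected counts over 12 libraries, and was above 0 in 4 of them. For the libraries with 0 counts, a limit of 3 counts is 0.0689 to 0.148 CPM before TMM scaling, depending on the library. It covers counting error only and does not apply to the 4 libraries above 0. Phgdh has 20 processed pseudogenes in GENCODE M21 that are 88.2% to 98.7% identical to it over 500 bases or more, and 0 of them have a row in the tables. Reads shared with such copies can be lost or split in counting; whether that happened was not tested.

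Psat1 (ENSMUSG00000024640, chr19:15904678-15947337, minus strand) encodes phosphoserine aminotransferase, the second enzyme of the branch. It was at 30.9, 30.04 and 29.0 CPM in estradiol-treated WT libraries, against 538, 525 and 552 CPM in untreated ones. Every treated library was far below every untreated one, and the log2 fold change was -4.16 (SE 0.0288, adjusted p = 2.52e-39). Only 3.90% of tested genes had a lower value of that fold change. Psph (ENSMUSG00000029446, chr5:129765558-129787449, minus strand) encodes the phosphatase that releases serine. It was at 4.86, 4.63 and 3.87 CPM with estradiol, against 59.2, 63.6 and 63.1 CPM untreated, with a log2 fold change of -3.78 (SE 0.0704, adjusted p = 9.34e-29). Exons of Psph overlap those of Cct6a, a chaperonin subunit gene on the other strand, which averaged 49.4 CPM with estradiol against 465 CPM untreated. Whether strand was used in counting is not given in the sources used here, so reads from the overlapping stretch cannot be assigned to Psph or Cct6a with certainty.

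Both serine hydroxymethyltransferases, which turn serine into glycine and load folate with its carbon, fell. The mitochondrial gene Shmt2 (ENSMUSG00000025403, chr10:127517123-127522444, minus strand) was at 71.6, 70.8 and 71.9 CPM with estradiol, against 489, 489 and 503 CPM untreated. The cytosolic gene Shmt1 (ENSMUSG00000020534, chr11:60788104-60811718, minus strand) was at 15.99, 15.7 and 16.9 CPM with estradiol, against 102, 104 and 106 CPM untreated. The log2 fold changes of -2.79 for Shmt2 (SE 0.0251) and -2.69 for Shmt1 (SE 0.0498) were close, with adjusted p = 1.12e-36 and 8.14e-29. Exons of Shmt1 overlap Smcr8 on the other strand, which moved the opposite way, at 579 CPM with estradiol against 68.7 CPM untreated. Exons of Shmt2 overlap Ndufa4l2 on the other strand, a far lower gene that averaged 0.471 CPM with estradiol against 6.06 CPM untreated. The next mitochondrial enzyme of the folate route is the dehydrogenase and cyclohydrolase Mthfd2 (ENSMUSG00000005667, chr6:83305691-83325908, minus strand). It was at 17.0, 16.5 and 17.7 CPM with estradiol, against 163, 159 and 169 CPM untreated, a log2 fold change of -3.27 (SE 0.0372, adjusted p = 3.4e-34).

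Asns (ENSMUSG00000029752, chr6:7675169-7693254, minus strand) encodes asparagine synthetase, which makes asparagine from aspartate. It was the highest of the 10 genes per length in every group. It was at 109, 105 and 108 CPM with estradiol, against 768, 761 and 801 CPM untreated, a log2 fold change of -2.86 (SE 0.0262, adjusted p = 1.67e-36). Pck2 (ENSMUSG00000040618, chr14:55540266-55551242, plus strand) encodes the mitochondrial enzyme that makes phosphoenolpyruvate from oxaloacetate. It had the largest fall of the 9, to 2.51, 2.32 and 2.12 CPM with estradiol, against 78.4, 75.5 and 76.6 CPM untreated. Its log2 fold change was -5.04 (SE 0.0706, adjusted p = 6.34e-32), and -4.13 on log2(TPM + 1) values scaled by TMM, a scale that understates changes of low genes. Its exons overlap Gm10876 on the other strand, which was not analysed here.

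In proline synthesis, the 2 genes changed by unequal amounts. Aldh18a1 (ENSMUSG00000025007, chr19:40550257-40588463, minus strand), whose enzyme turns glutamate into the proline precursor, was at 77.1, 76.6 and 79.3 CPM with estradiol, against 239, 235 and 243 CPM untreated. Its log2 fold change of -1.62 (SE 0.0249, adjusted p = 6.27e-31) was the smallest of the 9. Pycr1 (ENSMUSG00000025140, chr11:120635712-120643769, minus strand), whose mitochondrial reductase finishes proline, was at 0.848, 1.26 and 1.13 CPM with estradiol, against 11.02, 10.99 and 10.7 CPM untreated. Its log2 fold change was -3.34 (SE 0.124, adjusted p = 5.11e-21), -2.71 on the scaled log2(TPM + 1) values and -3.95 on log2(TPM + 0.1) values. The TPM ratio of Aldh18a1 to Pycr1 was 61.5, 54.8 and 64.4 with estradiol, against 11.98, 11.4 and 11.4 untreated. The groups did not overlap, and the mean difference in the log2 ratio was 2.37, with an exact two-sided permutation p of 0.1, the smallest that 3 against 3 libraries allow. TPM also depends on the listed length of Pycr1, 1960, 2566 and 2446 bases with estradiol against 1769, 1708 and 1581 bases untreated. The estradiol libraries held only 25.6, 37.2 and 24.7 expected counts of Pycr1. The count-based changes of -1.62 and -3.34 lie closer together than that ratio, and the part of length was not tested.

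**Figure D1:**
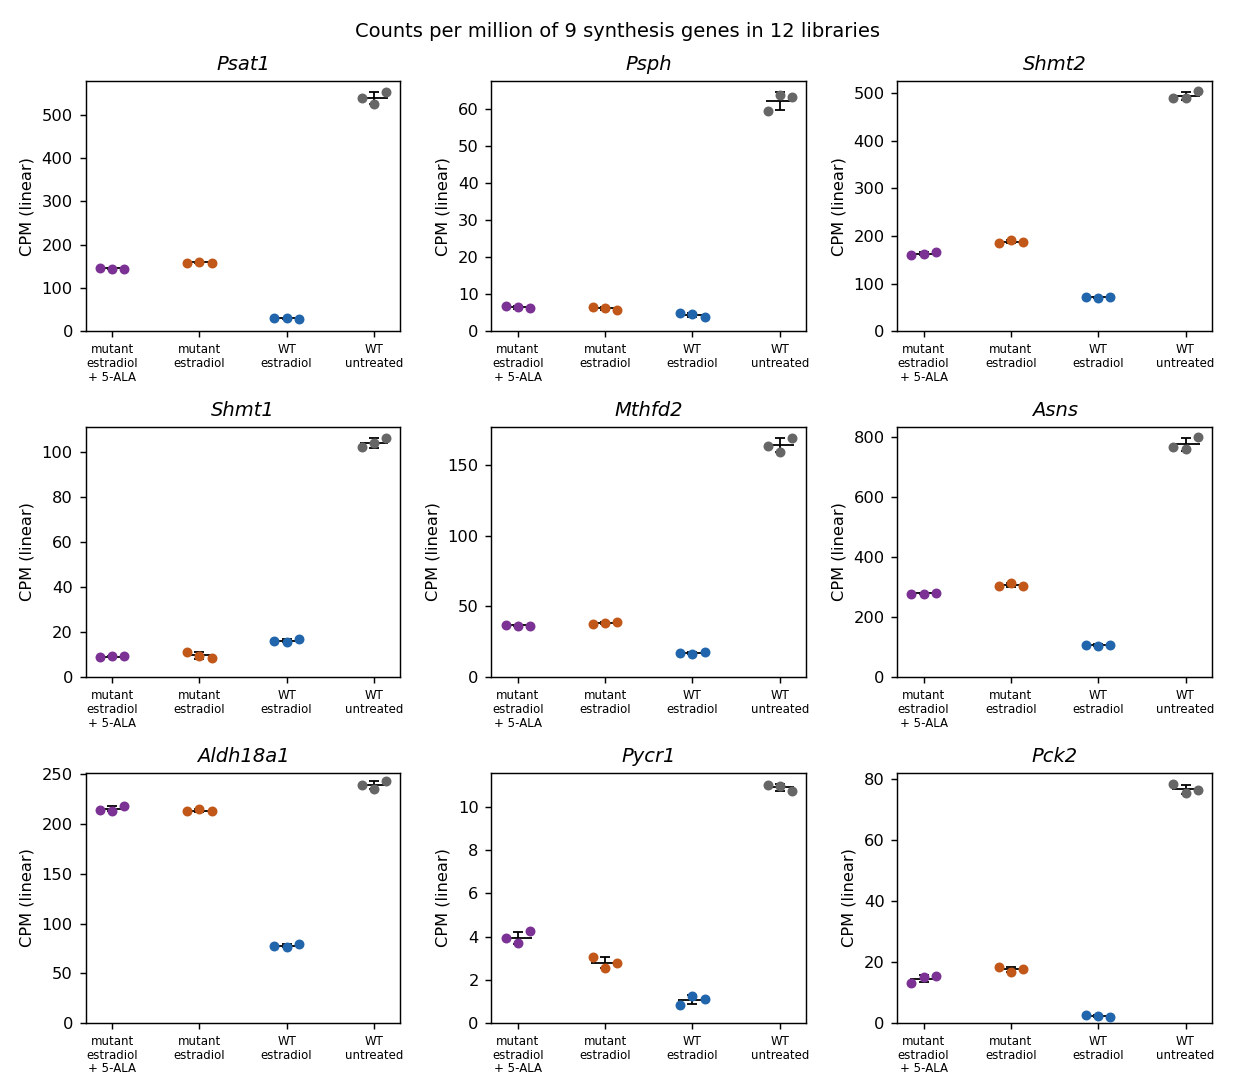
CPM, scaled by TMM, of the 9 tested synthesis genes on linear axes that start at 0. Each point is 1 of 3 libraries per group, with bars for the mean and SD. Untreated WT libraries lie above all others in all 9 panels, and WT libraries with estradiol lie below both mutant groups in all panels but Shmt1.

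Mutant cells were compared with WT cells under the same estradiol treatment to show what the Alas2 mutation changed; the mutation and any other difference between the 2 lines cannot be told apart. Here 8 of the 9 tested genes were higher in mutant cells and 1, Shmt1, was lower. Among all genes tested, 35.1% were called higher and 33.6% lower. The median log2 fold change of the 9 was 1.40, against -0.01 over all genes. None of the 9 overlapped between groups, as held for 36.3% of all genes in the higher direction and 35.4% in the lower. On unscaled log2(TPM + 1) values the median of all genes moved to 0.12 and the calls split into 5618 higher and 2326 lower in place of 4258 and 4076, and the 9 genes kept their directions and calls.

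The gene with the largest rise was Pck2. It was at 18.4, 16.8 and 17.9 CPM in mutant libraries, against 2.51, 2.32 and 2.12 CPM in WT libraries. The mutant libraries were 7.54-fold higher, a log2 fold change of 2.91 (SE 0.0837, adjusted p = 9.42e-23), and 0.281% of tested genes had a larger one. On the scaled log2(TPM + 1) values it was 2.20. Psat1 followed, at 158, 161 and 159 CPM in mutant libraries against 30.9, 30.04 and 29.0 CPM in WT libraries. Its log2 fold change was 2.41 (SE 0.0300, adjusted p = 2.07e-31), exceeded by 0.512% of genes.

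A middle set of 5 genes rose by similar amounts. Asns was at 304, 314 and 303 CPM in mutant libraries, against 109, 105 and 108 CPM in WT libraries, a log2 fold change of 1.52 (SE 0.0260). Aldh18a1 was at 213, 215 and 213 CPM, against 77.1, 76.6 and 79.3 CPM, a log2 fold change of 1.46 (SE 0.0251). Shmt2 was at 185, 191 and 187 CPM, against 71.6, 70.8 and 71.9 CPM, a log2 fold change of 1.40 (SE 0.0257), and its exon partner Ndufa4l2 averaged 2.79 CPM against 0.471 CPM. In these 3 genes mutant libraries were between 2.63-fold and 2.87-fold above WT libraries, with adjusted p of 3.59e-28, 3.9e-28 and 2.14e-27. Pycr1 was at 3.06, 2.54 and 2.77 CPM in mutant libraries, against 0.848, 1.26 and 1.13 CPM in WT libraries, a log2 fold change of 1.35 (SE 0.152, adjusted p = 4.72e-09). Mthfd2 was at 37.8, 38.3 and 39.0 CPM in mutant libraries, against 17.0, 16.5 and 17.7 CPM in WT libraries, a log2 fold change of 1.17 (SE 0.0432, adjusted p = 4.13e-20).

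Psph and Shmt1 stood outside this range. Psph was at 6.47, 6.31 and 5.81 CPM in mutant libraries, against 4.86, 4.63 and 3.87 CPM in WT libraries. Its rise of 0.46 on the log2 scale (SE 0.0885, adjusted p = 4.02e-05) was the smallest of the 8, and its exon partner Cct6a averaged 53.6 CPM in mutant cells against 49.4 CPM in WT cells. Shmt1 was at 11.2, 9.28 and 8.58 CPM in mutant libraries, against 15.99, 15.7 and 16.9 CPM in WT libraries. It fell by 0.76 on the log2 scale (SE 0.0662, adjusted p = 2.22e-11), while Smcr8, whose exons overlap it, averaged 386 CPM in mutant cells against 579 CPM in WT cells. The part of either partner in these results was not tested.

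Ratios within a library showed how unequally the paired enzymes moved. Per length, Shmt2 was 10.95, 13.6 and 14.2 times Shmt1 in mutant libraries with estradiol, against 3.17, 2.74 and 3.12 times in WT libraries with estradiol. Psat1 was 16.1, 17.3 and 19.3 times Psph in mutant libraries, against 4.30, 4.56 and 4.41 times in WT libraries. Neither pair of groups overlapped. The mean log2 ratios differed by 2.09 for Shmt2 over Shmt1 and by 1.99 for Psat1 over Psph, each with an exact two-sided permutation p of 0.1, the smallest possible. The ratio of Aldh18a1 to Pycr1 was 55.5, 53.0 and 51.0 in mutant libraries, against 61.5, 54.8 and 64.4 in WT libraries. Those groups overlapped, and the log2 ratio differed by -0.18 (exact permutation p = 0.2). Counts without length leaned the other way, with log2 fold changes of 1.46 for Aldh18a1 and 1.355 for Pycr1, so the direction is not settled. These were 15 ratio comparisons in all, over which each exact p of 0.1 became 0.125 after Benjamini-Hochberg adjustment.

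**Figure D2:**
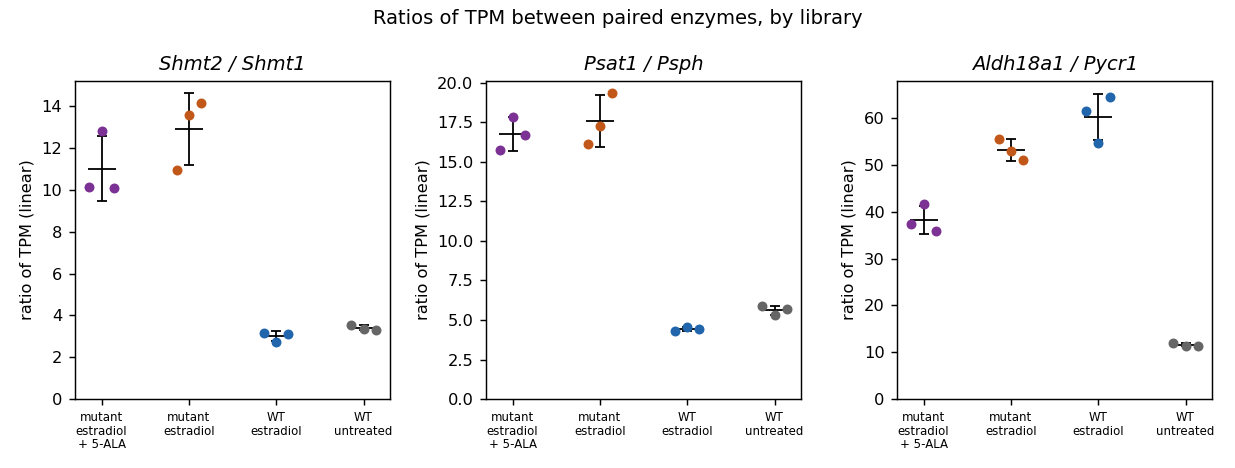
Ratio of TPM between paired enzymes in each of 12 libraries, on linear axes that start at 0, with bars for the mean and SD of 3 libraries. Shmt2 over Shmt1 and Psat1 over Psph are higher in both mutant groups than in both WT groups, and Aldh18a1 over Pycr1 is lowest in untreated WT cells, at 11.4 to 11.98.

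Mutant cells with estradiol were also set against untreated WT cells. Genotype and treatment both differ here and cannot be told apart, as no untreated mutant cells were among the groups. All 9 tested genes were lower in the mutant cells, beside 45.5% of all genes called lower and 42.5% called higher, and none overlapped, as held for 45.8% of all genes in the lower direction and 42.4% in the higher. The median log2 fold change was -1.99, against -0.02 over all genes. Aldh18a1 came closest to the untreated level, at 213, 215 and 213 CPM in mutant cells against 239, 235 and 243 CPM in untreated WT cells. Its log2 fold change of -0.16 (SE 0.0225, adjusted p = 9.72e-08) was 0.03 and not called on the scaled log2(TPM + 1) values. Asns and Shmt2 differed by -1.34 and -1.39, Psat1 by -1.75, Pycr1 by -1.99, Mthfd2 by -2.09 and Pck2 by -2.13 on the log2 scale. Psph at -3.33 and Shmt1 at -3.45 lay farthest below untreated WT cells. This comparison shares its mutant libraries with the previous one and its untreated libraries with the first.

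The first group addressed whether 5-ALA, given to mutant cells beside estradiol, altered these genes. Changes were small: Pycr1 rose, Psat1, Shmt2, Asns and Pck2 fell, and the other 4 tested genes were not called. The libraries without 5-ALA are those of the comparisons above. Over all genes 21.6% were called higher and 21.0% lower. The median log2 fold change of the 9 was -0.07, against 0.01 over all genes. The unscaled log2(TPM + 1) values moved the median of all genes to -0.15 and split the calls into 806 higher and 5719 lower, in place of 2620 and 2543, so small falls on that scale are read against that shift.

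Pycr1 was at 3.93, 3.68 and 4.24 CPM with 5-ALA, against 3.06, 2.54 and 2.77 CPM without it, and every library with 5-ALA was above every library without. The log2 fold change was 0.53 (SE 0.117, adjusted p = 0.000489). The TPM ratio of Aldh18a1 to Pycr1 was 37.3, 41.7 and 35.9 with 5-ALA, against 55.5, 53.0 and 51.0 without, with no overlap (exact permutation p = 0.1). Shmt2 was at 160, 162 and 166 CPM with 5-ALA, against 185, 191 and 187 CPM without, a log2 fold change of -0.21 (SE 0.0236, adjusted p = 1.88e-08). Pck2 was at 13.2, 15.1 and 15.5 CPM with 5-ALA, against 18.4, 16.8 and 17.9 CPM without, a log2 fold change of -0.27 (SE 0.0584, adjusted p = 0.000428). Psat1 was at 146, 145 and 145 CPM with 5-ALA, against 158, 161 and 159 CPM without. Its log2 fold change of -0.14 (SE 0.0245, adjusted p = 3.88e-05) was -0.08 and not called on the scaled log2(TPM + 1) values (adjusted p = 0.446). Asns was at 279, 278 and 283 CPM with 5-ALA, against 304, 314 and 303 CPM without, a log2 fold change of -0.13 (SE 0.0243, adjusted p = 4.26e-05). In all 4 genes that fell the libraries did not overlap, as held for 23.8% of all genes in the lower direction and 25.3% in the higher.

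Of the other 4, Mthfd2 was at 37.0, 36.4 and 36.2 CPM with 5-ALA and 37.8, 38.3 and 39.0 CPM without (log2 fold change -0.07, adjusted p = 0.128). Aldh18a1 was at 214, 213 and 218 CPM with 5-ALA and 213, 215 and 213 CPM without (0.01, adjusted p = 0.71). Both were called lower on the unscaled log2(TPM + 1) values, at -0.27 for Mthfd2 and -0.21 for Aldh18a1. Psph was at 6.92, 6.55 and 6.18 CPM with 5-ALA and 6.47, 6.31 and 5.81 CPM without (0.08, adjusted p = 0.462). Shmt1 was at 8.80, 9.39 and 9.32 CPM with 5-ALA and 11.2, 9.28 and 8.58 CPM without (-0.05, adjusted p = 0.659). Libraries overlapped for Aldh18a1, Psph and Shmt1, and the sign of all 3 changed under some alternatives.

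The 5-ALA group, set against WT cells with estradiol, gave 8 genes higher and 1, Shmt1, lower, beside 33.3% of all genes called higher and 29.0% lower. No gene of the 9 overlapped, as held for 34.8% of all genes in the higher direction and 31.1% in the lower. The median log2 fold change was 1.39, against 0.01 over all genes. This comparison uses the same WT libraries as the one without 5-ALA, so its values stand beside those and are not a separate line of evidence. The log2 fold changes were 2.65 for Pck2, 2.27 for Psat1, 1.88 for Pycr1, 1.47 for Aldh18a1, 1.39 for Asns, 1.19 for Shmt2, 1.1 for Mthfd2, 0.54 for Psph and -0.81 for Shmt1. On unscaled log2(TPM + 1) values Pck2 was at 1.88 and Pycr1 at 1.21. For comparison, Alas2 in the same mutant cells with 5-ALA averaged 12.3 CPM against 4293 CPM in WT cells.

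**Figure D3:**
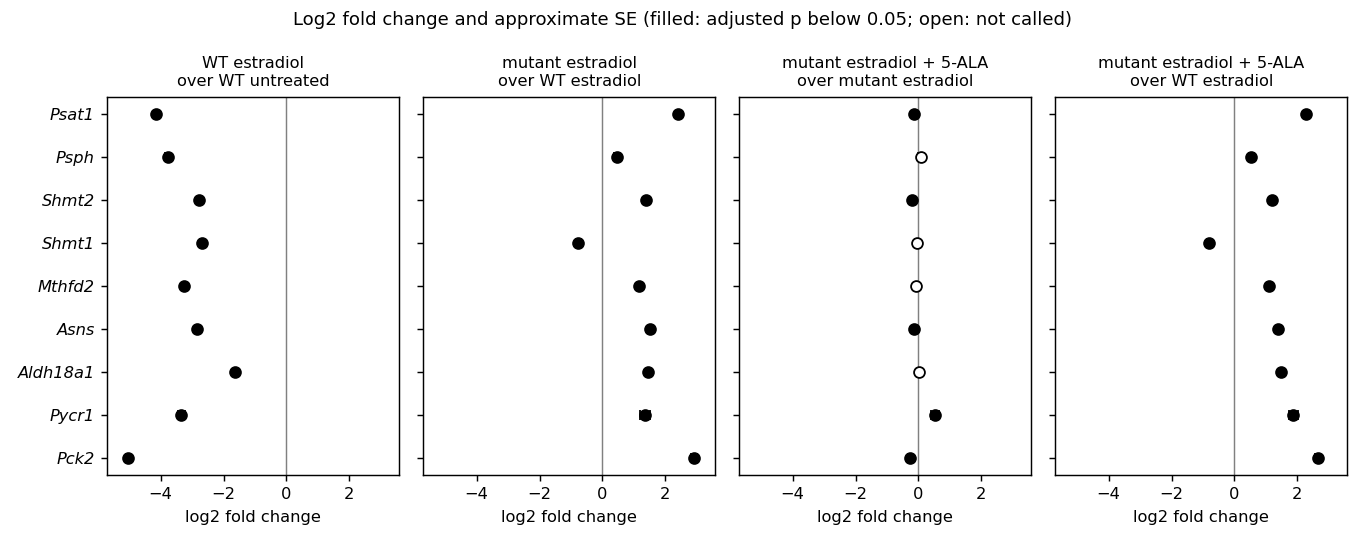
Log2 fold change of each tested synthesis gene in 4 comparisons, with approximate SE bars that are mostly smaller than the points, and filled points for adjusted p below 0.05. All 9 lie left of 0 for estradiol in WT cells, 8 lie right of 0 in mutant over WT cells with estradiol, and those for 5-ALA lie between -0.27 and 0.53.

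Per transcript length, Asns led in all 4 groups, with 223 ± 3.85 TPM in mutant cells with 5-ALA, 285 ± 4.39 TPM in mutant cells with estradiol, 85.5 ± 1.39 TPM in WT cells with estradiol and 755 ± 13.6 TPM in untreated WT cells (SD, n = 3 each). Psat1, Shmt2 and Aldh18a1 followed in the 3 estradiol-treated groups. In untreated WT cells Mthfd2, at 150.5 ± 1.29 TPM, lay just above Aldh18a1, at 142 ± 1.66 TPM. Neighbours in this order overlapped for Psat1 and Aldh18a1 in both mutant groups, and for Psph and Pck2 in mutant cells with 5-ALA. Pycr1 was the lowest of the 9 in every group, at 2.95 ± 0.251, 2.45 ± 0.0436, 0.703 ± 0.0551 and 12.3 ± 0.457 TPM in the same order of groups. The 10 genes together came to 610 ± 8.42, 759 ± 2.94, 232 ± 1.83 and 2161 ± 24.3 TPM. The sum was highest in untreated WT cells and lowest in WT cells with estradiol, and the 4 groups did not overlap. These TPM are not scaled by TMM, so differences between groups include the shifts in the median of all genes given above. On CPM scaled by TMM, Asns averaged 280 in mutant cells with 5-ALA against 307 without it, a smaller difference than in TPM.

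Across the 12 libraries, log2 CPM of Asns and Pck2 had a Pearson r of 0.9987, the highest among the 9 genes, and Shmt1 and Aldh18a1 the lowest, at 0.2185. The libraries form 4 clusters by group, so r mainly describes the order of 4 group means. High values are common: 570 of 7691 genes had an r above 0.99 with Psph, the most, and 7 of 7692 with Pycr1, the fewest. The gene named for each is therefore 1 of several alike. The gene most like each, among those with at least 10 CPM on average, was Asns for Pck2, Rapgef1 for Psat1 (r = 0.9978), Pole for Psph (0.9989), Mcm6 for Shmt1 (0.9994), Rpl21 for Shmt2 (0.9988), Nup210 for Mthfd2 (0.9996), Rpl27-ps3 for Asns (0.9993), Rcn1 for Aldh18a1 (0.9965) and Dock2 for Pycr1 (0.9935).

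The folate genes around these enzymes did not all share their pattern. Of 15 tested, 10 fell and 2 rose with estradiol in WT cells, with a median log2 fold change of -1.53, beside 46.4% of all genes lower and 43.3% higher. Mthfd1l and Mthfd1, the mitochondrial and cytosolic genes for the formate-producing and formate-using steps, fell by 6.54 and 4.39 on the log2 scale. Mthfd1l averaged 2.77 CPM with estradiol against 261 CPM untreated. In mutant over WT cells 5 rose, 5 fell and 5 were not called (median -0.04), close to the shares over all genes of 35.1% higher and 33.6% lower. Mthfd1l, the next step after Mthfd2, was at 2.58, 2.59 and 1.89 CPM in mutant cells and 3.17, 2.59 and 2.57 CPM in WT cells, and was not called (log2 fold change -0.25, adjusted p = 0.0857). With 5-ALA 5 rose and 4 fell (median 0.15), beside 21.6% of all genes higher and 21.0% lower. The same shares over all genes apply to the lists that follow.

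Among 8 tested genes of glycine and serine use, 5 fell and 1 rose with estradiol in WT cells (median -1.70). The glycine cleavage gene Gcsh and the mitochondrial serine carrier Sfxn1 fell by 4.29 and 1.98 on the log2 scale. The riser was Slc25a38, the mitochondrial glycine carrier of heme synthesis, at 40.8, 40.9 and 41.7 CPM with estradiol against 34.3, 33.4 and 34.1 CPM untreated. In mutant over WT cells 4 rose and 0 fell (median 0.21), with Slc25a38 at 55.3, 59.3 and 60.2 CPM in mutant cells against 40.8, 40.9 and 41.7 CPM in WT cells (log2 fold change 0.51, adjusted p = 3.65e-13). With 5-ALA 1 rose and 1 fell (median 0.01), the fall being Slc25a38, by 0.22. Of 4 tested genes of the methionine cycle and transsulfuration, 2 rose and 2 fell with estradiol, 1 rose and 2 fell in mutant over WT cells, and 1 rose and 1 fell with 5-ALA. Mat2a, which makes S-adenosylmethionine, fell by 1.68 with estradiol and by 0.24 in mutant over WT cells, and rose by 0.55 with 5-ALA on the log2 scale.

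Of 12 tested neighbours in proline, glutamate, aspartate and phosphoenolpyruvate metabolism, 7 fell and 3 rose with estradiol in WT cells (median -0.62). Pycrl, a cytosolic relative of Pycr1, fell by 3.41 on the log2 scale, and Glul, glutamine synthetase, rose by 3.18. In mutant over WT cells 6 rose and 2 fell (median 0.18). Got2, the mitochondrial aspartate aminotransferase, was at 93.2, 99.3 and 97.9 CPM in mutant cells against 50.6, 49.0 and 51.9 CPM in WT cells (log2 fold change 0.95, adjusted p = 2.59e-20). Glul fell by 0.73 on the log2 scale. With 5-ALA 2 rose and 4 fell (median -0.08), with Glul higher by 0.41 and Got1, the cytosolic aminotransferase, lower by 0.23 (log2 fold change -0.23).

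Regulators of these pathways were read beside them. Of 11 genes of the ATF4 branch with Myc, 4 rose and 5 fell with estradiol in WT cells (median -0.02), 7 rose and 3 fell in mutant over WT cells (median 0.27), and 7 rose and 1 fell with 5-ALA (median 0.14). The counts with estradiol in WT cells are near the 43.3% higher and 46.4% lower of all genes. Atf4 mRNA was at 258, 261 and 272 CPM in mutant cells, against 105, 105 and 105 CPM in WT cells with estradiol, a log2 fold change of 1.33 (adjusted p = 4.13e-25). With estradiol in WT cells, where all 9 synthesis genes fell, Atf4 was at 105, 105 and 105 CPM against 101, 99.1 and 102 CPM untreated, and was not called although its libraries did not overlap (log2 fold change 0.06, adjusted p = 0.0795). Trib3, a known ATF4 target, was at 53.6, 51.4 and 54.0 CPM in mutant cells against 18.9, 20.2 and 21.9 CPM in WT cells with estradiol, and at 61.9, 59.5 and 61.0 CPM untreated. Some genes of the branch rose with estradiol in WT cells: Ddit3, which encodes the stress factor CHOP, was at 243, 244 and 253 CPM with estradiol against 63.2, 62.7 and 64.1 CPM untreated (log2 fold change 1.96, adjusted p = 7.91e-32), and Atf5, a relative of Atf4, rose by 1.22 on the log2 scale. In mutant over WT cells Ddit3 rose by 0.45 and Atf5 by 0.55, while Cebpb fell (log2 fold change -0.525). Cebpb was higher with 5-ALA in mutant cells (log2 fold change 0.499). With 5-ALA Atf4 was at 278, 290 and 305 CPM, against 258, 261 and 272 CPM without it (log2 fold change 0.14, adjusted p = 8.43e-05). Trib3 was higher by 0.40 on the log2 scale. Of the 9 synthesis genes, Pycr1 was higher by 0.53 with 5-ALA. Psat1, Asns, Shmt2 and Pck2 were lower, and the other 4 were not called. Eif2ak1, the HRI kinase, rose by 3.19 with estradiol in WT cells and fell by 0.17 in mutant over WT cells on the log2 scale. Myc fell by 1.98 with estradiol in WT cells, and was at 77.5, 81.2 and 82.7 CPM with 5-ALA against 37.0, 41.2 and 40.2 CPM without it in mutant cells (log2 fold change 1.02, adjusted p = 3.99e-16). These are mRNA levels, and ATF4 is known to be controlled mainly in its translation, which was not measured.

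**Figure D4:**
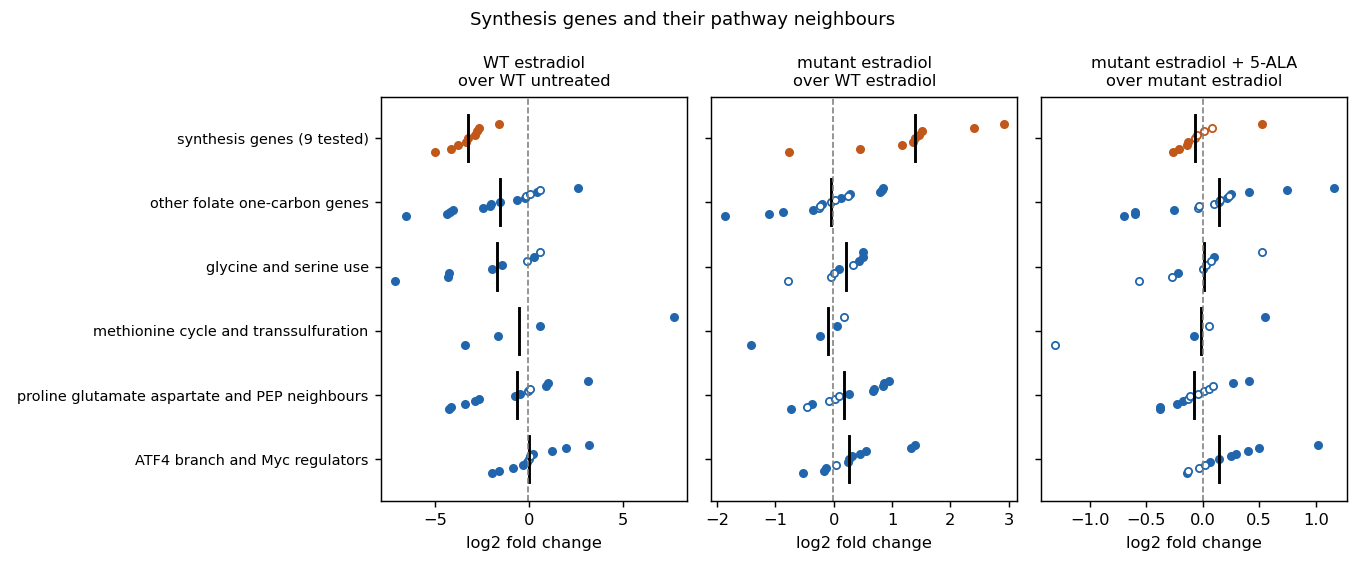
Log2 fold change of the tested synthesis genes (orange) and of 5 lists of neighbours and regulators (blue) in 3 comparisons, with filled points for adjusted p below 0.05 and a black line at each list's median. The x axes differ between panels. In mutant over WT cells with estradiol the synthesis genes have a median of 1.40 and the 5 lists have medians between -0.09 and 0.27.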

How the data were processed

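RNA was purified with TRIzol and sequenced from TruSeq libraries, per the labels' protocols. Bowtie 1.1.1, RSEM 1.2.20, CASAVA 1.8.2 and build mm10 were used, per the submitters' processing notes, and neither annotation release nor use of strand is stated there. The deposited tables hold, per the file headers, the authors' RSEM expected count of each gene, in which shared reads are divided by likelihood. They also hold the authors' TPM and FPKM values, which are scaled for length and depth, and each gene's length. FPKM was not used here, and lengths only described the genes.

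GENCODE M21 gave a symbol and position to 24746 of 25097 identifiers. Expected counts were rounded, filtered with filterByExpr (12115 genes kept), scaled by TMM and fitted in R 4.3.3 with edgeR 4.0.16 as 4 group means over 12 libraries, with robust estimation. Comparisons used the quasi-likelihood F test with Benjamini-Hochberg adjustment over all 12115 genes, and calls, rises and falls are those with an adjusted p below 0.05. The fit was also run on simulated counts with far fewer changed genes than were called here. That run does not measure error rates in these data. The SE is approximate: the size of the log2 fold change divided by the root of its F statistic. The common biological coefficient of variation was 0.0334. TPM served for levels, ratios (exact permutation tests on log2 ratios, 3 libraries a group) and as an alternative on log2(TPM + 1) and log2(TPM + 0.1) with limma 3.58.1. That alternative with TMM scaling of TPM was chosen after seeing the data. Other alternatives used DESeq2 1.42.0, other filters, a replicate block, only the groups compared, and each library left out.

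The genes and lists were chosen with earlier results of these data known. Neighbours named come from the 2 called genes per direction, list and comparison that changed most, at a mean of 10 CPM or more. Exceptions, named after their values were seen, are Mthfd1l in mutant over WT cells, Atf4, Atf5, Ddit3 and Trib3 across comparisons, and the exon partners. Some list members have no values printed. Copies of Phgdh were found with blastn 2.17.0 (identity of at least 85% over at least 500 bases).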

Additional observations from a re-analysis of the deposited data

How the results depend on the processing

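Of 675 values of the 9 tested synthesis genes under alternatives, 661 kept direction and side of the threshold, among them all 135 in each of the comparisons of estradiol-treated with untreated WT cells and of either mutant group with estradiol-treated WT cells. The exceptions lay in 2 comparisons. For 5-ALA in mutant cells, unscaled log2(TPM + 1) and log2(TPM + 0.1) values gave log2 fold changes of -0.18 and -0.20 for Psph, -0.21 and -0.21 for Aldh18a1 (adjusted p = 0.00127 and 0.0013) and -0.27 and -0.28 for Mthfd2 (adjusted p = 6.18e-05 and 6.35e-05). TMM scaling of TPM gave -0.084 for Psat1 (adjusted p = 0.446), -0.015 for Psph, 0.007 for Shmt1 and -0.022 for Aldh18a1. Aldh18a1 was at -0.003 with no filter on low counts and from -0.008 (without the third 5-ALA library) to 0.017 over the libraries left out in turn, and Shmt1 likewise from -0.122 to 0.022, its highest without the first mutant library with estradiol. For mutant with estradiol against untreated WT cells, Aldh18a1 was at 0.027 with TMM-scaled TPM. The cause was not tested.

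Counts of called genes stayed within 1.5 times under every alternative run. With the replicate block they were 10832 for estradiol in WT cells, 8245 for mutant over WT cells with estradiol, 5032 for 5-ALA, 7456 for mutant cells with 5-ALA over WT cells and 10636 for mutant over untreated WT cells, and the block changed no call of the 9 genes. Replicate numbers did not pair the libraries: deviations from group means correlated at -0.094 to 0.056 over 18 same-numbered pairs. Phgdh had too few counts to be tested, and Pycr1, the lowest of the other 9, had the largest SE in each comparison.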
